A study of Mus musculus with 20 samples.

Results

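The immunoglobulin heavy chain variable segments (Ighv segments) were taken as all genes of the deposited table of estimated counts whose symbol begins with Ighv, which gave 183 of 35204 genes. GENCODE M21 annotates 68 of them as pseudogenes only. The other 115, which have an entry other than a pseudogene, are called functional here. All lie on the minus strand of chromosome 12 of GRCm38, between 113572927 and 116010093. RNA had been sequenced from the terminal ileum of 20 female C57BL/6 mice, with 5 mice in each of 4 groups that the study used to ask how dietary tryptophan and the microbiota act on the ileum. All mice were wild type and were fed amino acid diets for 3 weeks from 7 weeks of age. CD mice received the control diet with tryptophan and TDD mice the same diet without it, both with their specific pathogen-free (SPF) microbiota. CD+ABX and TDD+ABX mice received these diets together with ampicillin, vancomycin, metronidazole, neomycin and gentamycin in the drinking water. The libraries hold whole tissue cut near the cecum, so lymphoid follicles could be included to different degrees, and which mice shared a cage or litter is not given in the sources used here.

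A B cell builds the variable part of its antibody heavy chain by joining 1 V, 1 D and 1 J segment of this locus, and its descendants inherit that choice. Each Ighv segment is thus a label of the B cells and plasma cells that chose it, and a clone that expands raises its own segment. Plasma cells make far more immunoglobulin mRNA than resting B cells do, and in the gut most of them secrete IgA. The segment codes for framework regions, which fold the domain, and for complementarity-determining regions (CDR) 1 and 2, which contact the antigen, while CDR3 arises at the junction. Germinal centre B cells further mutate these sequences, and a read with such changes can match its germline segment less well.

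The segments that carried the results are given here as germline sequence, so that the differences between them can be seen. The segments are Ighv1-26 (chr12:114788372-114788805), Ighv1-81 (chr12:115920279-115920712), Ighv1-53 (chr12:115158403-115158835), Ighv7-3 (chr12:114153180-114153644), Ighv9-4 (chr12:114299961-114300389), Ighv9-3 (chr12:114140692-114141122), Ighv14-2 (chr12:113994469-113994898), Ighv6-3 (chr12:114391712-114392169), Ighv7-1 (chr12:113896408-113896946), Ighv1-50 (chr12:115119748-115120219) and Ighv8-8 (chr12:115294062-115294504), all on the minus strand of GRCm38. Each line holds 135 bases of the GENCODE M21 transcript, 5′ to 3′, from the cysteine codon of framework 1 onwards. This stretch covers CDR1, framework 2 and all or most of CDR2, whose last codons are cut off in Ighv7-3, Ighv7-1, Ighv6-3 and Ighv8-8. Capitals mark that cysteine codon and the tryptophan codon that opens framework 2, with 13 codons between them in each segment shown except Ighv8-8, which has 15.
Ighv1-26: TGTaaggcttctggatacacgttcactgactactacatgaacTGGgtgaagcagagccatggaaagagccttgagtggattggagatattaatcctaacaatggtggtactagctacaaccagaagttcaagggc
Ighv1-81: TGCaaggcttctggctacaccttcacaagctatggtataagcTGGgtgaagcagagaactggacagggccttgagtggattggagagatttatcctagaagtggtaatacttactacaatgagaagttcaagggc
Ighv1-53: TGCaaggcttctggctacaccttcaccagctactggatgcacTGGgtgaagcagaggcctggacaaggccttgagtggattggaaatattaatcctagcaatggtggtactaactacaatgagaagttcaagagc
Ighv7-3: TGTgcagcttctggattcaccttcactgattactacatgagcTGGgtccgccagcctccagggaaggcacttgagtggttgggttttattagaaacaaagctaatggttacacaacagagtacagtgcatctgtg
Ighv9-4: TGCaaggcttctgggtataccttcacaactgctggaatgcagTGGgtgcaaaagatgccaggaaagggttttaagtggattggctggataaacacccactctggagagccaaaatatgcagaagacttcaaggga
Ighv9-3: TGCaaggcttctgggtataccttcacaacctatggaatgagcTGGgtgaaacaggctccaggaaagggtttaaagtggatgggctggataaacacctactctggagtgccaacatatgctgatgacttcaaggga
Ighv14-2: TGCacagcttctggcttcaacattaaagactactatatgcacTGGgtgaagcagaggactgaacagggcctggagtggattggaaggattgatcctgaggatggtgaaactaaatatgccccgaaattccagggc
Ighv6-3: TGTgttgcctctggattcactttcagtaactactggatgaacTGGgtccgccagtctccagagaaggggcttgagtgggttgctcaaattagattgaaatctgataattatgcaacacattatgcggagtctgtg
Ighv7-1: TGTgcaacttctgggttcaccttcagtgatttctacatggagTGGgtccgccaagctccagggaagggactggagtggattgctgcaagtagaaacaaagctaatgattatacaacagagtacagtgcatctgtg
Ighv1-50: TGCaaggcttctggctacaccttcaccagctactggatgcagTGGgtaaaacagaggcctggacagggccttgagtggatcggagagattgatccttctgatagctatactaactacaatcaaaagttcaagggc
Ighv8-8: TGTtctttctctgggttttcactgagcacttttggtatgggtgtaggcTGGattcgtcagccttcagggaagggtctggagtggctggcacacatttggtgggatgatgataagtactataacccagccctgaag

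Among the segments shown, Ighv1-26, Ighv1-81, Ighv1-53 and Ighv1-50 belong to family 1, the large family related to J558. Related segments are close in sequence, which limits how well a read can be given to 1 of them. The nearest functional relative of Ighv1-26 was Ighv1-18, with 96.9% identical bases, that of Ighv14-2 was Ighv14-1, with 97.2%, and that of Ighv7-1 was Ighv7-3, with 88.7%. Stretches of 31 bases, the default word length of the aligner the authors used, occurred in no other annotated transcript for 1.9% to 70.4% of the words of the 11 segments that were the largest in at least 1 mouse. Ighv1-72 held the 1.9%, and its level is uncertain for this reason.

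Libraries differed in B cell content, and the differences were not balanced over the groups. Total estimated counts ranged from 36676963 to 58662617 per mouse, with 9239 to 39983 of them in Ighv segments. Of 12 B cell genes, such as Ms4a1 (encoding CD20) and Cr2, the summed level was 109 to 240.3 CPM (counts per 1000000 counts of the library, after scaling by the trimmed mean of M values) in CD mice 2 and 3, TDD mice 2 to 5 and TDD+ABX mouse 5, and 6.48 to 39.1 CPM in the other 13 mice. In the first 7 libraries, called rich in B cell genes from here on by a limit of 100 CPM chosen after these values were seen, Cxcl13, a chemokine of lymphoid follicles, was at 6.87 to 12.7 CPM, against 0.836 to 2.78 CPM in the others. Intestinal epithelium was present in every library, with the brush border gene Vil1 at 2490 to 5129 CPM. The genes that mark the ileum were low in SPF mice, where Slc10a2, the bile acid transporter of the ileum, was at 1.38 to 8.80 CPM, against 13.2 to 86.0 CPM with ABX. Fabp6, which encodes the ileal bile acid binding protein, was at 0.238 to 3.91 CPM in CD and TDD mice and at 2.65 to 144 CPM with ABX. Results that rest on the 7 libraries are given with and without them.

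Of the 183 segments, 42 had no count in any mouse, among them 37 pseudogenes and 5 functional segments. At least 10 counts in at least 1 mouse were reached by 104 segments, 99 of them functional, and 43 segments reached this in every mouse. The 68 pseudogenes held at most 0.413% of the Ighv counts of a mouse. Over the 20 mice, family 1 with its 92 segments took a mean of 51.1% of all Ighv counts, followed by family 6 with 7.30% and family 9 with 6.96%, while the single segment of family 16 had no count. The 10 segments with the highest mean share were Ighv1-81 (6.41%), Ighv1-26 (6.18%), Ighv6-3 (4.89%), Ighv3-6 (3.98%), Ighv1-64 (3.74%), Ighv1-53 (3.65%), Ighv9-4 (3.54%), Ighv10-1 (3.23%), Ighv4-1 (3.20%) and Ighv9-3 (3.09%), as shares of counts. By TPM, which divides by transcript length, Ighv1-81 (6.83%) and Ighv1-26 (6.62%) also had the highest shares.

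The summed level of all Ighv segments separated 4 of the 5 TDD mice from every other mouse, but not the TDD group as a whole. It was 372, 502, 407, 299.9 and 331 CPM in CD mice 1 to 5 (382 ± 78.3, SD, n = 5) and 232, 816, 698, 753 and 679 CPM in TDD mice 1 to 5 (636 ± 232, SD, n = 5). With ABX it was 214, 319, 334, 257 and 413 CPM in CD+ABX mice 1 to 5 (307 ± 76.2, SD, n = 5) and 310.4, 327, 353, 225 and 312 CPM in TDD+ABX mice 1 to 5 (305 ± 48.1, SD, n = 5). The 4 high TDD mice are those rich in B cell genes, and TDD mouse 1 lay below all CD mice.

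**Figure D1:**
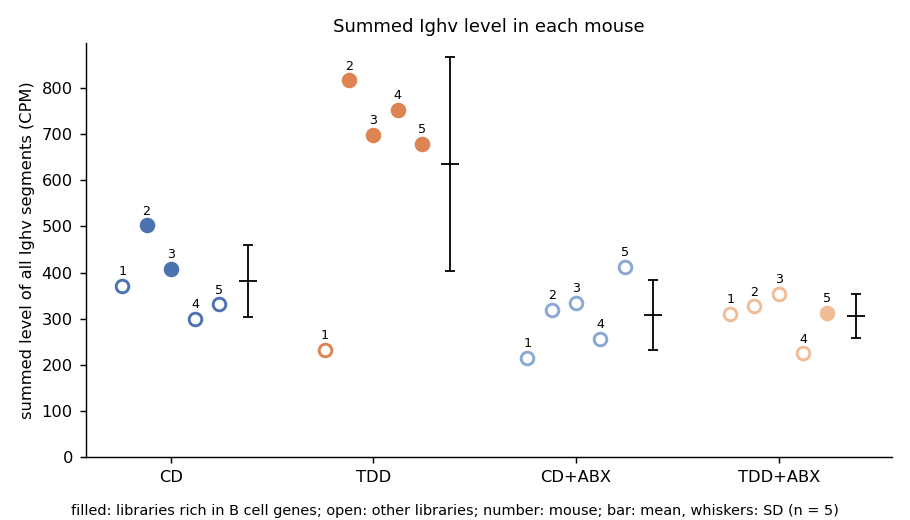
Summed CPM of the 183 Ighv segments (vertical axis) in each mouse (points, numbered 1 to 5) of the 4 groups, with mean and SD beside them and filled points for the 7 libraries rich in B cell genes. TDD mice 2 to 5 sit between 679 and 816 CPM, above all other mice, and TDD mouse 1 sits at 232 CPM.

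As a ratio of group means, the summed level was 1.66 for TDD over CD with the SPF microbiota, and 0.994 with ABX. It was 0.804 for ABX over none on CD and 0.481 on TDD. Groups overlapped in each of these 4 comparisons, and no test was made of this sum over chosen genes. In bulk tissue, fewer cells of a type and less RNA per cell cannot be told apart. Among libraries rich in B cell genes, the 4 TDD mice (679 to 816 CPM) lay above CD mice 2 and 3 (502 and 407 CPM), and TDD+ABX mouse 5 was at 312 CPM. Without the 7 libraries, TDD was left with mouse 1 alone and the log2 ratio of TDD over CD in SPF mice turned from 0.73 to -0.53, and that of ABX over none on TDD from -1.06 to 0.39. The part of B cell content in the result was not tested beyond these values.

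Among the genes that Ighv segments are spliced to, Igha followed a similar order, but not all of these genes did. Igha, the constant region of IgA, was at 1466, 2063, 1478, 1182 and 1245 CPM in CD mice 1 to 5 and 1257, 2694, 2384, 2373 and 2151 CPM in TDD mice 1 to 5, and at 706, 960.2, 1183, 757 and 1300.1 CPM in CD+ABX mice 1 to 5 and 1022, 1214, 1102, 919 and 987 CPM in TDD+ABX mice 1 to 5. It made up 89.99% to 98.6% of all heavy chain constant counts, which places most of the constant region mRNA with IgA in all 20 mice. Ighm (IgM) was at 56.7 to 119 CPM in the libraries rich in B cell genes and at 9.31 to 19.1 CPM in the others, and Ighd (IgD), a mark of resting B cells, at 16.1 to 45.4 CPM and 0.251 to 6.40 CPM. Of the IgG constant genes, Ighg2b (means 13.4 CPM in CD and 39.3 CPM in TDD mice) and Ighg3 (1.99 and 8.05 CPM) had higher means on TDD. Ighg1 was nearly level (4.34 and 4.66 CPM) and Ighg2c had a lower mean (6.25 and 4.50 CPM). The groups overlapped for each of them, and none passed the test of this comparison given below. Ighg3 was at 3.12 to 13.8 CPM in the libraries rich in B cell genes and at 0.184 to 0.854 CPM in the others. Ighg2b was at 6.77 to 68.4 CPM and 1.11 to 8.59 CPM. Counts of Ighv segments were 18.2% to 33.2% of those of the constant genes. This percentage was 23.1 to 25.8 in CD mice and 27.8 to 33.2 in CD+ABX mice, which did not overlap, and 18.2 to 28.8 in TDD and 24.1 to 31.6 in TDD+ABX mice.

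The number of segments seen, with at least 10 counts, was 78, 82, 83, 78 and 79 in CD mice 1 to 5, 72, 81, 82, 81 and 85 in TDD mice, 77, 69, 81, 72 and 62 in CD+ABX mice and 75, 73, 76, 76 and 71 in TDD+ABX mice. Groups overlapped in all 4 comparisons. Since this number grows with the Ighv counts of a library, the expected number with at least 1 count was also computed after thinning every mouse to 9239 Ighv counts. It was 93.6 to 100.3 in CD, 91 to 97.7 in TDD, 82.3 to 99.9 in CD+ABX and 93.6 to 98.2 in TDD+ABX mice. The difference in the mean number with ABX on CD was -7.8 segments before thinning and -6.88 after it, and with ABX on TDD -6 before and 1.76 after it. For TDD over CD it was 0.2 and -2.94 in SPF mice and 2 and 5.70 with ABX. The groups overlapped before and after thinning. CD+ABX mouse 5 had the fewest segments by both measures, with 21913 Ighv counts, the most of its group.

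The largest segment differed between mice, also within each group. In CD mice it was Ighv1-26 in 4 mice, with 13.98% (mouse 1), 9.83% (mouse 3), 11.2% (mouse 4) and 13.7% (mouse 5) of the Ighv counts, and Ighv1-81 in mouse 2 with 12.02%, where Ighv1-26 followed at 11.8%. TDD mice were led by Ighv1-53 in mice 1 (7.18%) and 3 (10.9%), by Ighv7-3 in mouse 2 (18.03%), by Ighv1-81 in mouse 4 (9.36%) and by Ighv5-17 in mouse 5 (9.59%). By TPM, Ighv1-81 led TDD mouse 5, with 8.82%, and the leading segment of the other 19 mice stayed the same. No TDD mouse was led by Ighv1-26.

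With ABX, single segments reached higher shares in some mice. CD+ABX mice 1 and 4 were led by Ighv9-4 (16.8% and 19.2%), mouse 2 by Ighv1-26 (15.0%), mouse 3 by Ighv1-76 (7.5%) and mouse 5 by Ighv9-3 (23.3%). TDD+ABX mice 1 and 2 were led by Ighv14-2 (22.9% and 19.2%), mouse 3 by Ighv1-72 (8.93%), mouse 4 by Ighv1-81 (8.89%) and mouse 5 by Ighv6-3 (13.7%). The exact 95% binomial interval (Clopper-Pearson) of the highest share, Ighv9-3 in CD+ABX mouse 5, was 22.8% to 23.9%, and that of the lowest, Ighv1-53 in TDD mouse 1, 6.66% to 7.72%. These intervals cover counting error only. The means of the largest share were 12.1% in CD, 11.01% in TDD, 16.4% in CD+ABX and 14.7% in TDD+ABX mice, and the groups overlapped in all 4 comparisons.

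**Figure D2:**
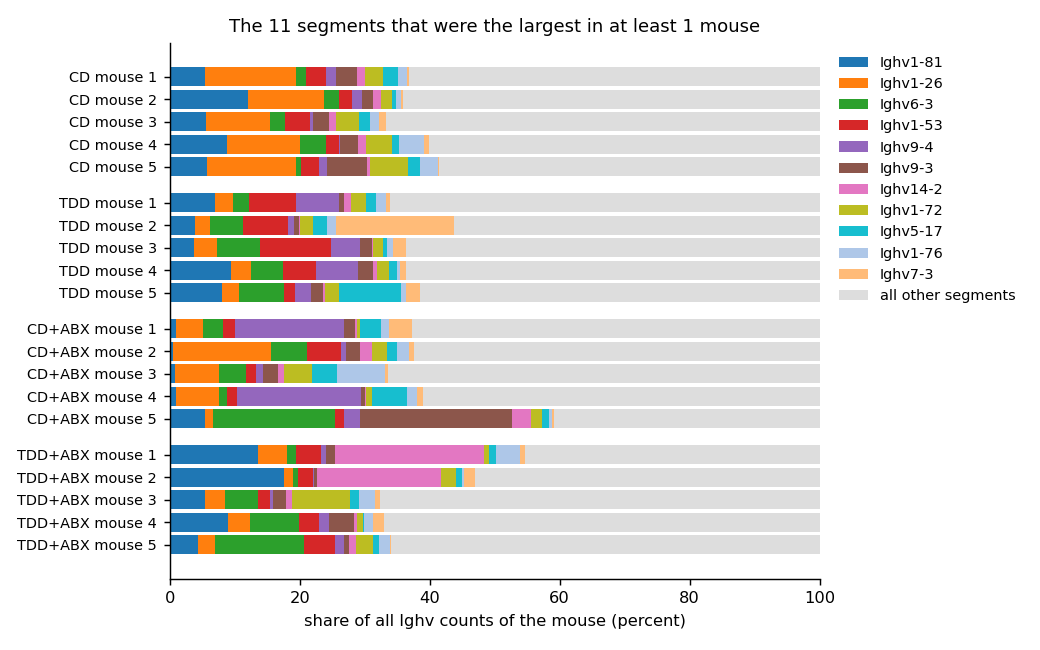
Share of all Ighv counts of a mouse (horizontal axis, percent) taken by each of the 11 segments that were the largest in at least 1 mouse (colours) and by all others (grey), 1 bar per mouse. Ighv1-26 takes 9.83% to 13.98% in the 5 CD mice and 2.22% to 3.61% in the 5 TDD mice, while Ighv14-2 takes 22.9% and 19.2% in TDD+ABX mice 1 and 2.

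Some mice that shared a leading segment also shared the next. TDD+ABX mice 1 and 2, both led by Ighv14-2, had Ighv1-81 in second place, with 13.6% and 17.6%. In CD+ABX mouse 5, Ighv6-3 followed Ighv9-3 with 18.8%, so that these segments together with the next 3 held 61.4% of the Ighv counts. The share of counts that a pair of mice held in common, summed over segments, was 62.5% to 71.8% over the 10 pairs of CD mice (median 69.2%), 51.9% to 65.6% over TDD pairs (median 57.5%), 34.3% to 65.6% over CD+ABX pairs (median 48.1%) and 46.5% to 67.6% over TDD+ABX pairs (median 52.4%). CD+ABX mice 1 and 4 (65.6%) and TDD+ABX mice 1 and 2 (67.6%) were the most alike pairs of their groups. For the 150 pairs from different groups the median was 52.2%. Pairs share mice and are no independent values.

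How evenly the counts were spread was measured by the effective number of segments, the inverse of the summed squared shares, which would equal the number of segments if all were at the same level. It was 25.6, 21.2, 28.6, 24.2 and 23.7 in CD mice 1 to 5 and 28.6, 16.8, 24.6, 30.5 and 28.3 in TDD mice. It was 22.0, 20.2, 32.3, 13.3 and 9.26 in CD+ABX mice and 11.4, 12.0, 31.4, 30.1 and 22.1 in TDD+ABX mice. The 4 lowest values came from ABX-treated mice, and the highest, 32.3, did as well. None of these 5 mice was among the libraries rich in B cell genes.

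Family 1 held 62.1%, 59.7%, 61.9%, 63.3% and 59.8% of the Ighv counts in CD mice 1 to 5 and 56.5%, 46.6%, 63.3%, 56.1% and 43.9% in TDD mice. It held 45.1%, 52.2%, 53.2%, 31.5% and 27.6% in CD+ABX mice and 44.8%, 52.9%, 49.5%, 48.0% and 43.7% in TDD+ABX mice. All CD mice thus lay above all ABX-treated mice, whereas the TDD group overlapped each other group. Other families had high shares in single mice rather than in groups. Family 9 held 18.7%, 20.1% and 26.4% in CD+ABX mice 1, 4 and 5 and 3.01% and 3.56% in mice 2 and 3. Family 14 held 24.1% and 19.6% in TDD+ABX mice 1 and 2 and 0.971% to 4.87% in the other 18 mice. Family 7 held 20.99% in TDD mouse 2, and family 6 held 20.9% in CD+ABX mouse 5 and 20.7% in TDD+ABX mouse 5.

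**Figure D3:**
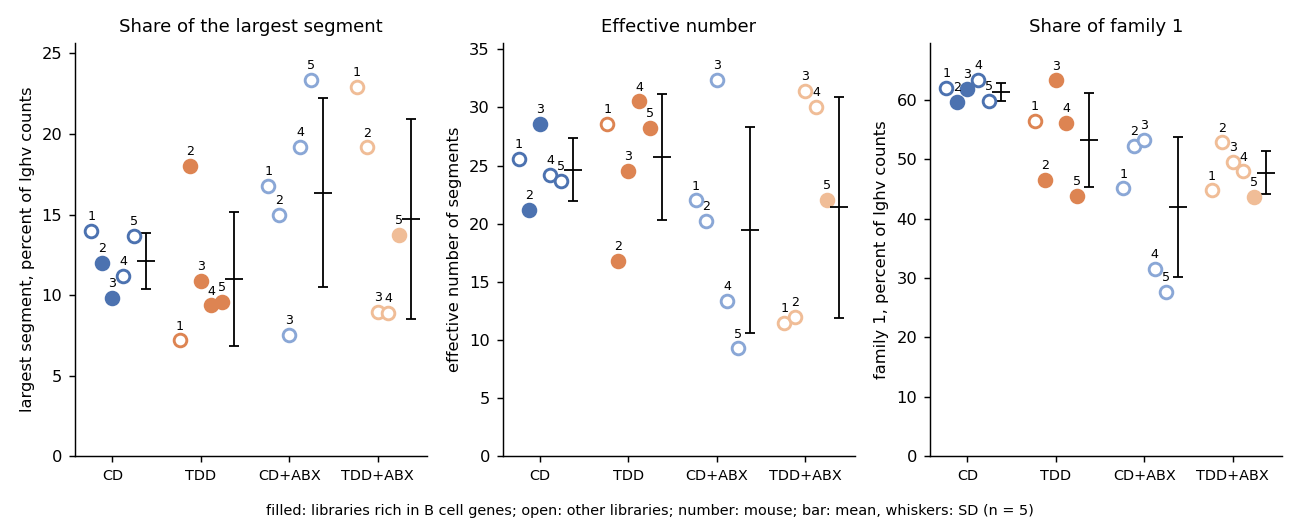
Share of the largest segment (left, percent), effective number of segments (middle) and share of family 1 (right, percent) in each mouse (points, numbered 1 to 5; filled, rich in B cell genes), with mean and SD (n = 5) beside them. Family 1 is at 59.7% to 63.3% in CD mice and at 27.6% to 53.2% in ABX-treated mice, and the effective number spans 9.26 to 32.3 among CD+ABX mice.

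Segments from all parts of the locus contributed to the counts. The 183 segments were split by position into 3 sets of 61, from the end near the joining segments to the far end. The proximal set held 21.2% to 55.0% of the counts of a mouse, the middle set 17.8% to 42.5% and the distal set 17.5% to 46.1%. Ighv1-81 lies in the distal set, Ighv1-26 in the middle set, and Ighv9-3, Ighv9-4, Ighv14-2, Ighv7-3 and Ighv7-1 in the proximal set. CD+ABX mouse 4 had the highest proximal and the lowest distal share, and it was led by Ighv9-4 and Ighv4-1.

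**Figure D4:**
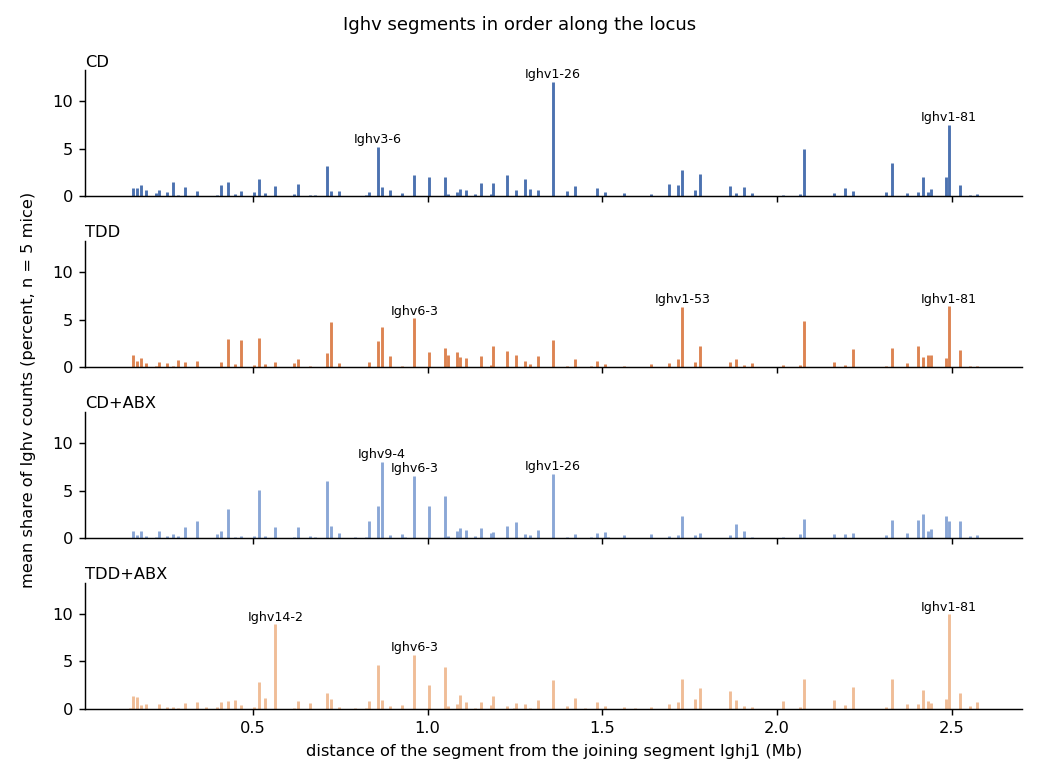
Mean share of Ighv counts (vertical axis, percent, n = 5 mice) of every Ighv segment against its distance from the joining segment Ighj1 (horizontal axis, Mb), 1 panel per group, with the 3 highest segments named. Peaks stand at Ighv1-26 in CD (12.1%), Ighv1-81 and Ighv1-53 in TDD (6.40% and 6.39%), Ighv9-4 in CD+ABX (8.05%) and Ighv1-81 and Ighv14-2 in TDD+ABX (9.97% and 8.92%).

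Single segments were compared between groups with edgeR's quasi-likelihood test in 1 fit over all 20 mice, with the 16306 genes that reached 0.5 CPM in any mouse. A segment is said to have changed at a Benjamini-Hochberg adjusted p (q) under 0.05 over all genes tested and a fold change of at least 2. Of the 183 segments 92 could be tested, 90 of them functional, and 12 of the 91 others had at least 10 counts in a mouse. The spread between mice was wide, with a median standard error of the log2 fold change of about 0.80 for the segments against 0.117 over all genes tested (TDD against CD in SPF mice), so that a segment needed a larger difference to pass.

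The diet was compared in SPF mice first. On TDD, 7 segments rose in this fit, namely Ighv1-4, Ighv1-53, Ighv1-75, Ighv2-6, Ighv7-1, Ighv7-3 and Ighv9-4, and none fell. This is 7.61% of the 92 tested, where 1.84% of all genes changed, 0.846% upwards. At an unadjusted p under 0.05, 20 segments were higher and 4 lower, which is 26.1% of those tested against 28.5% of all genes, of which 14.1% were higher and 14.4% lower. Of all genes 0.993% fell. The split of the segments by direction depended on the test, with 9 higher and 2 lower by DESeq2, 3 and 3 by limma-voom, 4 and 2 by limma on log2(TPM + 1) and 3 and 1 on log2(TPM + 0.1). DESeq2 called all of the 7 and limma-voom 3 of them. The median log2 fold change was 0.47 over the segments and 0.01 over all genes, with 61 segments higher and 31 lower on TDD, where 52.7% of all genes were higher.

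Ighv7-1, of the small family 7, was at 11.9, 23.4, 6.38, 4.62 and 32.8 CPM in TDD mice 1 to 5 and 3.42, 0.465, 2.85, 1.101 and 2.61 CPM in CD mice 1 to 5. Every TDD mouse lay above every CD mouse (log2 fold change 2.92, standard error 0.64, q = 0.00504, edgeR). Ighv1-75 was at 3.56, 6.53, 38.5, 15.8 and 7.88 CPM in TDD mice 1 to 5 and 2.62, 0.977, 1.28, 1.35 and 1.999 CPM in CD mice 1 to 5, again with no overlap (log2 fold change 3.14, standard error 0.76, q = 0.00944, edgeR). The neighbouring Ighv1-76, with 92.2% identical bases, was at 3.69, 11.4, 7.35, 3.25 and 5.64 CPM in TDD mice 1 to 5 and 5.37, 4.16, 5.52, 11.2 and 9.15 CPM in CD mice 1 to 5, and its groups overlapped. Ighv1-18 lay above all CD mice as well (7.63 ± 4.35 CPM on TDD and 2.35 ± 0.478 CPM on CD, SD, n = 5) but did not pass in the fit over all mice (q = 0.0546, edgeR). It passed with DESeq2 (log2 fold change 1.69, q = 0.0283), edgeR on the SPF mice alone (1.69, q = 0.0187) and edgeR without TDD mouse 1 or CD+ABX mouse 1, 2 or 4. Ighv7-1, Ighv1-75 and Ighv1-18 are 3 of 92 segments with every TDD mouse above every CD mouse, where 4.68% of all genes were.

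Ighv1-53 was at 16.6, 57.5, 75.9, 38.2 and 12.05 CPM in TDD mice 1 to 5 and 11.5, 9.79, 15.8, 6.05 and 9.03 CPM in CD mice 1 to 5. It passed the test (log2 fold change 1.94, standard error 0.48, q = 0.0101, edgeR), although TDD mouse 5 lay within the CD range. Ighv9-4 was at 15.5, 7.49, 31.6, 49.3 and 16.4 CPM in TDD mice 1 to 5 and 6.06, 7.95, 1.91, 0.321 and 4.103 CPM in CD mice 1 to 5, with TDD mouse 2 below CD mouse 2 (log2 fold change 2.57, standard error 0.81, q = 0.0389, edgeR). For Ighv7-3 a single mouse set the size, with 1.15, 147, 13.6, 7.62 and 14.5 CPM in TDD mice 1 to 5 and 1.02, 1.81, 3.97, 2.36 and 0.337 CPM in CD mice 1 to 5 (log2 fold change 4.26, standard error 0.99, q = 0.00722, edgeR). Without TDD mouse 2 its log2 fold change was 2.27 (q = 0.0472, edgeR). That mouse also held the highest Ighv1-77, at 37.2 CPM against a highest of 9.19 CPM elsewhere, and Ighv11-2 was highest in TDD mice 5 and 2, at 8.70 and 6.78 CPM. Of Ighv1-4 and Ighv2-6, with mean levels on TDD of 9.15 and 4.04 CPM, the first was high in TDD mice 3 and 4 (23.1 and 18.7 CPM) and at 0.204 to 3.37 CPM in the other 3.

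Ighv1-26, the leading segment of CD mice, was lower on TDD without passing edgeR's test over all 20 mice. It was at 6.498, 18.1, 25.2, 24.1 and 17.96 CPM in TDD mice 1 to 5 and 52.00, 59.2, 40.02, 33.5 and 45.3 CPM in CD mice 1 to 5, so that every TDD mouse lay below every CD mouse (log2 fold change -1.32, standard error 0.45, q = 0.0556, edgeR). It passed with DESeq2 (log2 fold change -1.33, q = 0.0309), limma-voom (-1.42, q = 0.0297), edgeR on the SPF mice alone (-1.33, q = 0.0221) and edgeR with the summed B cell level as a covariate (-1.60, q = 0.0484), and without CD+ABX mouse 1, 2 or 5. Ighv1-18, the nearest relative of Ighv1-26, was in the opposite order, as given above, and 25.2% of the words of Ighv1-26 were its own. The lower Ighv1-26 also held among libraries rich in B cell genes, with 18.0 to 25.2 CPM in TDD mice 2 to 5 and 59.2 and 40.0 CPM in CD mice 2 and 3, and among the others, with 6.50 CPM in TDD mouse 1 and 33.5 to 52.0 CPM in CD mice 1, 4 and 5. Ighv5-12 was the other segment with all TDD mice below all CD mice (0.842 ± 1.11 and 5.73 ± 3.48 CPM, SD, n = 5; q = 0.0539, edgeR), where 4.90% of all genes were. It passed with DESeq2 (log2 fold change -2.77, q = 0.0422), limma-voom (-3.70, q = 0.0174) and both limma fits on TPM. Ighv1-59 fell with limma-voom (log2 fold change -2.35, q = 0.0369) and with limma on log2(TPM + 1), and Ighv1-59 and Ighv3-4 without TDD mouse 3 in edgeR.

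Calls on the diet in SPF mice depended on the libraries. Without the 7 libraries rich in B cell genes none of the 7 segments passed, with 1 TDD mouse left, and the log2 fold changes of Ighv1-4 and Ighv7-3 turned to -1.16 and -0.10 while those of the other 5 stayed above 0. With the summed B cell level as a covariate 5 of the 7 passed. When single mice were left out, Ighv1-53, Ighv1-75, Ighv2-6, Ighv7-1 and Ighv7-3 passed in all 20 fits. For Ighv1-4 the call was lost when CD mouse 4, CD mouse 5, TDD mouse 3 or TDD mouse 4 was left out (q up to 0.0771), and for Ighv9-4 when any of CD mice 1, 3, 4 and 5 or TDD mice 3, 4 and 5 was (q up to 0.1005), all with edgeR. The number of segments that changed rose to 12 without TDD mouse 1 and to 11 without CD+ABX mouse 5.

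None of the 7 constant genes tested, 12 B cell genes, 8 germinal centre genes or 12 plasma cell genes changed on TDD in SPF mice with edgeR, and at an unadjusted p under 0.05 there were 3, 0, 0 and 6. DESeq2 gave 0 calls over these lists as well, and 5 genes passed edgeR's q without a fold limit. Without TDD mouse 1 there were 3 genes that changed, and without CD mouse 2 or 3 there was 1. Igha was higher by 0.55 on the log2 scale (q = 0.0707, edgeR). Ighe, the constant region of IgE, did not pass the filter and was at most at 0.144 CPM.

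In ABX-treated mice the diet changed 1 segment in edgeR's fit over all mice, Ighv8-8, which rose. This is 1.09% of the 92 segments, where 0.331% of all genes changed, 0.159% upwards and 0.172% downwards. Ighv8-8 was at 4.75, 16.2, 4.79, 2.25 and 1.72 CPM in TDD+ABX mice 1 to 5 and 0.9699, 0.647, 1.86, 0.0973 and 0.452 CPM in CD+ABX mice 1 to 5, with TDD+ABX mouse 5 below CD+ABX mouse 3 (log2 fold change 2.89, standard error 0.67, q = 0.0358, edgeR). Its CDR1, in the sequences above, lies in the longer stretch between the marked codons. It lost the call without any 1 of CD+ABX mice 1, 2, 4 and 5 or TDD+ABX mice 1, 2 and 3 (q up to 0.105, edgeR), and without CD+ABX mouse 3 there were 2 segments that changed. Without the 7 libraries rich in B cell genes it passed (log2 fold change 3.12, q = 0.0429, edgeR), and with the summed B cell level as a covariate it did not. Ighv8-8 was also not called by limma-voom, limma on log2(TPM + 0.1), or edgeR with a replicate block or on the ABX-treated mice alone. Ighv1-81 rose with DESeq2 (log2 fold change 2.26, q = 0.0270), limma-voom (2.85, q = 0.0492) and both limma fits on TPM. It also rose in edgeR without CD+ABX mouse 5 (3.75, q = 0.00229). Ighv9-4 fell with DESeq2 (-2.98, q = 0.0109) and in edgeR without CD+ABX mouse 2 (-3.28, q = 0.0478). No segment separated all mice of both groups, where 2.35% of all genes were higher and 2.43% lower in this way. The median log2 fold change over the segments was -0.03. Unadjusted p-values under 0.05 were reached by 22 segments, 23.9% of those tested against 14.8% of all genes. Of the lists of constant, B cell, germinal centre and plasma cell genes, Ighg2c alone changed, a constant region of IgG (log2 fold change 1.98, q = 0.0275, edgeR), a call that was lost when any of CD+ABX mice 1, 3 and 4 and TDD+ABX mice 2 and 4 was left out. Of the 12 B cell genes 9 had an unadjusted p under 0.05, and their summed level was 6.92 to 167 CPM in TDD+ABX and 6.48 to 14.5 CPM in CD+ABX mice.

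On CD, 7 segments fell with ABX and none rose in the fit over all mice, namely Ighv1-50, Ighv1-52, Ighv1-55, Ighv1-64, Ighv1-81, Ighv5-6 and Ighv8-8. They are 7.61% of the 92 tested, where 2.30% of all genes changed, 1.69% downwards and 0.607% upwards, and 5 of the 7 are of family 1, as are 48 of the 92. The median log2 fold change was -0.58 over the segments and -0.00479 over all genes. At an unadjusted p under 0.05 there were 25 segments, 27.2% of those tested, against 26.7% of all genes. 3 of the 7 separated the groups, with every CD+ABX mouse below every CD mouse, where 5.88% of all genes did, and no segment lay above in this way, where 3.86% of all genes did. DESeq2 called 12 segments as lower and 1 as higher. Those it added as lower were Ighv1-19, Ighv1-61, Ighv1-69, Ighv5-4 and Ighv7-1. Ighv1-69 also fell with limma-voom (log2 fold change -1.88, q = 0.0201), both limma fits on TPM and the replicate block. Ighv1-26 fell with limma-voom (-1.61, q = 0.0182) and in edgeR without CD+ABX mouse 2. Ighv9-4 rose with DESeq2 (log2 fold change 2.33, q = 0.030) and, in edgeR, without CD mouse 2 or CD+ABX mouse 2 or 3, as did Ighv2-9-1 without CD mouse 3.

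Ighv1-50 was at 0.705, 0.312, 1.49, 0.311 and 0.829 CPM in CD+ABX mice 1 to 5 and 5.65, 4.697, 4.89, 5.34 and 2.88 CPM in CD mice 1 to 5 (log2 fold change -2.67, standard error 0.47, q = 0.00148, edgeR), and was the steadiest of the 7 within the CD group. Ighv1-55 was at 1.12, 2.88, 2.15, 1.77 and 0.434 CPM in CD+ABX mice 1 to 5 and 5.18, 6.58, 19.7, 5.802 and 6.59 CPM in CD mice 1 to 5 (log2 fold change -2.40, standard error 0.62, q = 0.0161, edgeR). Ighv8-8 was at 0.9699, 0.647, 1.86, 0.0973 and 0.452 CPM in CD+ABX mice 1 to 5 and 2.89, 8.21, 3.31, 1.995 and 4.71 CPM in CD mice 1 to 5 (log2 fold change -2.39, standard error 0.67, q = 0.0241, edgeR). These are the 3 segments whose groups did not overlap.

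Ighv1-81 was low in 4 CD+ABX mice and within the CD range in the fifth, with 2.07, 1.82, 2.702, 2.45 and 22.5 CPM in CD+ABX mice 1 to 5 and 19.97, 60.3, 22.5, 26.5 and 19.1 CPM in CD mice 1 to 5 (log2 fold change -2.22, standard error 0.66, q = 0.033, edgeR). CD+ABX mouse 5, the exception, was also the mouse with the highest Ighv9-3 (96.4 CPM, against 1.48 to 7.68 CPM in the other 4) and Ighv6-3 (77.6 CPM, against 3.05 to 17.6 CPM). In TDD+ABX mice, the levels of Ighv1-81 were 42.2, 57.5, 18.9, 20.01 and 13.8 CPM, and the comparison with TDD did not pass the test. Ighv1-64, Ighv1-52 and Ighv5-6 had log2 fold changes of -1.69 (q = 0.0297), -2.27 (q = 0.0498) and -2.29 (q = 0.0429), each with overlapping groups (edgeR).

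Ighv1-50 passed in all 20 fits without 1 mouse, Ighv1-55 in all but that without CD mouse 3 (q = 0.0596) and Ighv8-8 in all but those without CD mouse 2 or CD+ABX mouse 2 or 5 (q up to 0.0604). Ighv1-81 lost its call without CD mouse 2 or CD+ABX mouse 1, 2, 3 or 4 (q up to 0.0842), Ighv1-64 without CD mouse 3 or 4 or CD+ABX mouse 1, 2 or 5 (q up to 0.0741), and Ighv5-6 and Ighv1-52 passed in 10 and 5 of 20 fits, all with edgeR. The number that changed was 4 without CD mouse 4 or CD+ABX mouse 1 or 2, and 3 without CD+ABX mouse 5. Without the 7 libraries rich in B cell genes, as with the summed B cell level as a covariate, 1 of the 7 passed, Ighv1-50.

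T cell genes and some constant region, germinal centre and plasma cell genes fell in the same comparison. With ABX on CD, 6 of 8 T cell genes fell, with Cd8b1 at a log2 fold change of -4.07 (q = 0.000487, edgeR). Their summed level was 43.2 to 124 CPM in CD and 21.4 to 28.1 CPM in CD+ABX mice. Gcsam, a germinal centre gene (log2 fold change -3.21, q = 0.0060), Irf4, a regulator of plasma cells (-1.01, q = 0.0291), Ighg2b (-2.72, q = 0.0086) and Ighg2c (-3.82, q = 7.59e-05) fell as well (edgeR). Others of the same lists were higher with ABX. Bcl6, of the germinal centre list, was at 9.72 to 15.5 CPM in CD and 17.2 to 20.4 CPM in CD+ABX mice. Of the plasma cell list, Xbp1 was at 149 to 196 and 214 to 238 CPM and Sdc1 at 71.8 to 84.4 and 85.2 to 120 CPM. Without a fold limit, 9 genes of the constant, B cell, germinal centre and plasma cell lists passed as lower and 4 as higher (edgeR). None of the 12 B cell genes passed with the fold limit, although all had an unadjusted p under 0.05. Their summed level was 11.1 to 158 CPM in CD and 6.48 to 14.5 CPM in CD+ABX mice. With the fold limit, the number of list genes that fell was 3 without CD mouse 2 or 3 or CD+ABX mouse 1, 2, 3 or 4. It was 11 without TDD mouse 1 and 10 without TDD+ABX mouse 5. Without CD mouse 2 or CD+ABX mouse 1 or 2, 1 list gene rose. With the summed B cell level as a covariate 3 fell and 2 rose. The part of these genes in the lower segments was not tested beyond the covariate above.

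On TDD, ABX lowered 15 segments and raised 1. The 16 are 17.4% of the 92 tested, where 1.67% of all genes changed, 1.29% downwards and 0.374% upwards. The median log2 fold change was -0.91 over the segments and -0.03 over all genes, with 73 segments lower and 19 higher, where 45.5% of all genes were higher. At an unadjusted p under 0.05 there were 27 segments, 29.3% of those tested, against 30.6% of all genes. This comparison shares its TDD mice with the diet comparison in SPF mice, so that values of both are given side by side and not as separate evidence. Every TDD+ABX mouse lay below every TDD mouse for Ighv1-64, Ighv1-75, Ighv7-1 and Ighv9-4, 4 of 92, where 5.05% of all genes did so, and none lay above, where 5.97% did.

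Ighv7-1 was at 0.145, 0.7804, 1.302, 2.43 and 0.7897 CPM in TDD+ABX mice 1 to 5, below the TDD levels given above (log2 fold change -3.85, standard error 0.67, q = 0.00167, against 2.92 for TDD over CD). Ighv9-4 was at 2.44, 0.5603, 2.07, 3.36 and 4.36 CPM in these mice (log2 fold change -3.24, standard error 0.84, q = 0.0152, against 2.57 for TDD over CD), both with edgeR. In CD+ABX mice Ighv9-4 was at 36.00, 2.301, 3.64, 49.2 and 10.2 CPM, so that CD+ABX mice 4 and 1 came next to TDD mouse 4, the highest of the series. Ighv1-75 was at 1.38, 2.62, 2.005, 0.776 and 1.12 CPM in TDD+ABX mice (log2 fold change -3.19, standard error 0.76, q = 0.0103, edgeR). Of the remaining segments, Ighv2-4 (log2 fold change -4.57, q = 0.0383), Ighv1-15 (-3.69, q = 0.0173), Ighv7-3 (-3.60, q = 0.0170), Ighv1-4 (-3.53, q = 0.0215), Ighv2-6 (-3.50, q = 0.0190) and Ighv3-8 (-3.16, q = 0.0205) had the next lowest values (edgeR). Ighv2-4 is uncertain, since 15.9% of its words were its own and its highest level was 1.79 CPM on TDD and 0.0957 CPM on TDD+ABX. The other 6 that fell, Ighv1-18, Ighv1-53, Ighv1-64, Ighv1-78, Ighv1-9 and Ighv5-17, had log2 fold changes from -2.87 to -1.42.

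The segment that rose was Ighv14-2, by 2 mice. It was at 71.1, 62.6, 3.22, 1.23 and 3.35 CPM in TDD+ABX mice 1 to 5 and 2.58, 0.894, 1.16, 5.17 and 2.82 CPM in TDD mice 1 to 5, so that TDD+ABX mice 1 and 2 were far above all others and the other 3 lay within the TDD range (log2 fold change 3.50, standard error 1.02, q = 0.0273, edgeR). Without TDD+ABX mouse 1 or 2, or TDD mouse 2, 3 or 5, it did not pass (q up to 0.0852, edgeR). It passed with DESeq2, but not with limma-voom, limma on TPM or edgeR on the TDD and TDD+ABX mice alone. Ighv14-1, its nearest relative, was not among the segments that changed.

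Of the 16, Ighv1-53, Ighv1-75, Ighv7-1 and Ighv9-4 passed in all 20 fits without 1 mouse. Ighv7-3 lost its call without TDD mouse 2 (log2 fold change -1.61, q = 0.142), Ighv5-17 without TDD mouse 5 (q = 0.0602) and Ighv1-15 without TDD mouse 4 (q = 0.0625), each being the TDD mouse with the highest level. Ighv1-4 and Ighv3-8 lost theirs without 3 mice each, among them TDD mouse 4 (q up to 0.0661 and 0.0700). DESeq2 called 19 segments and limma-voom 6. The number that changed was 8, 10 and 9 without TDD+ABX mouse 1, 2 or 3 and 21 without TDD mouse 1. Without the libraries rich in B cell genes, which left 1 TDD mouse, 1 of the 16 passed, Ighv7-1, and Ighv1-4, Ighv3-8 and Ighv7-3 turned to log2 fold changes of 1.30, 1.74 and 1.65. With the summed B cell level as a covariate, 7 of the 16 passed (all edgeR).

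**Figure D5:**
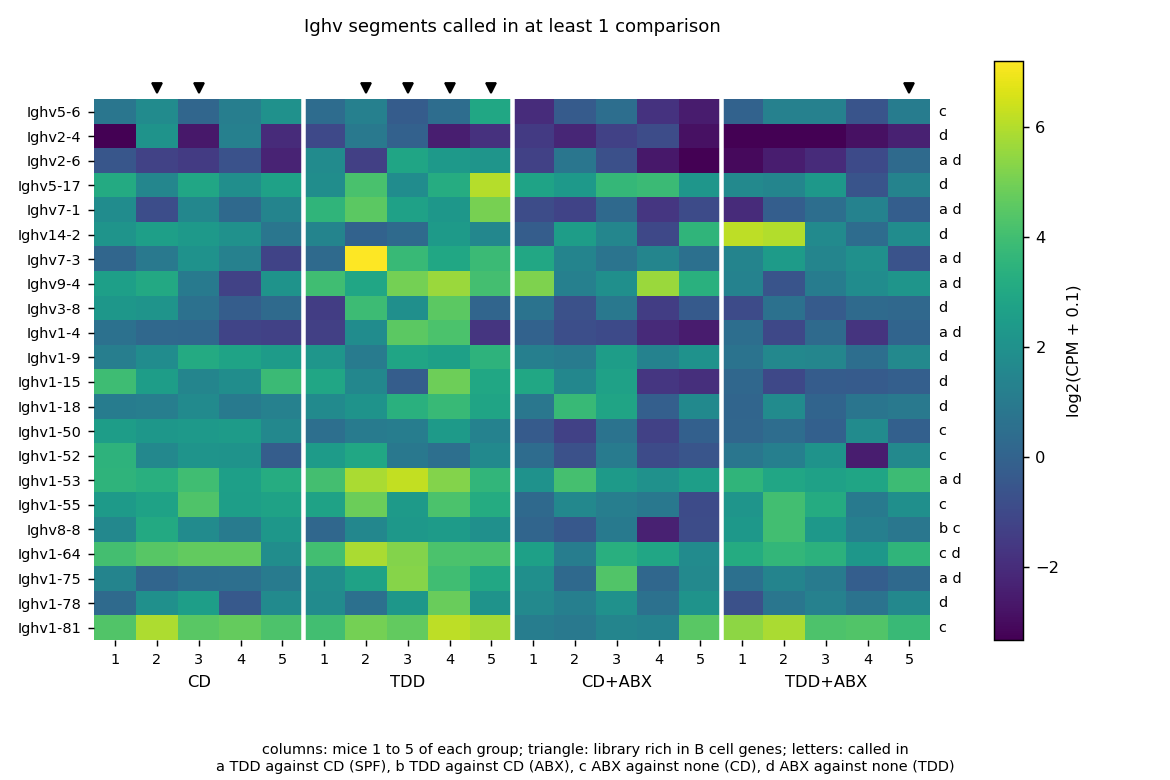
Level of the 22 segments that changed in at least 1 comparison (log2 of CPM + 0.1, colour) in each of the 20 mice, in order along the locus, with triangles over libraries rich in B cell genes and letters naming the comparisons in which a segment passed. Ighv7-3 reaches 147 CPM in TDD mouse 2, and Ighv14-2 is at 71.1 and 62.6 CPM in TDD+ABX mice 1 and 2.

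Most constant region genes and some plasma cell genes fell in the same comparison. Igha fell by 1.05 on the log2 scale with ABX on TDD (q = 0.0026, edgeR), and with it Ighm (-1.84, q = 0.0420), Ighg2b (-2.95, q = 0.0047), Ighg2c (-1.36, q = 0.0275) and Ighg3 (-2.91, q = 0.0183), so that 5 of the 7 constant genes tested passed. Ighg1 and Ighd did not. Igkc, the kappa light chain constant region, fell by 1.12 (q = 0.0017), and of 12 plasma cell genes Jchain, which links IgA dimers (-1.05, q = 0.0023), Mzb1, a chaperone of immunoglobulin assembly (-1.27, q = 0.0031), and Irf4 (-1.22, q = 0.0103) fell (edgeR). Not all plasma cell genes went this way, and Sdc1 was at 74.4 to 87.0 CPM in TDD and 95.2 to 118 CPM in TDD+ABX mice. None of the 12 B cell or 8 germinal centre genes passed in edgeR with the fold limit, with 1 and 4 at an unadjusted p under 0.05. Of the constant, B cell, germinal centre and plasma cell lists, 11 genes passed as lower and 3 as higher without a fold limit. The 8 that passed with the fold limit became 5 without TDD mouse 2 or 3 or TDD+ABX mouse 1 or 4, and 15 without TDD+ABX mouse 5. Without the libraries rich in B cell genes none of these lists' genes passed.

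Whether ABX altered the effect of the diet was tested as an interaction. No segment passed in edgeR, where 0.0245% of all genes did, and 21 of 92 had an unadjusted p under 0.05, which is 22.8% against 8.90% of all genes. DESeq2 called 3. The lowest p-values were those of Ighv9-4 (interaction -5.56 on the log2 scale, standard error 1.16, q = 0.0838), Ighv1-75 (-5.01, standard error 1.06, q = 0.0838) and Ighv1-18 (-3.29, standard error 0.82, q = 0.139), in edgeR. Ighv1-75 passed without CD+ABX mouse 4 (q = 0.0459, edgeR). For the segments named above as changed by diet in SPF mice alone, edgeR over all mice did not show a difference between SPF and ABX-treated mice. DESeq2 did for Ighv9-4 and Ighv1-75 among them, so the answer for these depended on the test.

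Genes that build, switch and export antibodies were tested in the same fit. Of 8 rearrangement and switching enzymes 5 could be tested. Rag1 and Rag2, which cut the DNA for V, D and J joining in the bone marrow, were at most at 0.0251 and 0.220 CPM in any mouse, and Dntt, which adds bases at the junctions, at most at 0.1197 CPM. Of the 6 genes listed for light chains 5 could be tested. Igkc fell with ABX on TDD and Vpreb3 with ABX on CD (log2 fold change -2.86, q = 0.0310, edgeR). Pigr, the receptor that carries IgA across the epithelium, was at 1440 to 1916 CPM in CD, 1290.2 to 2749 CPM in TDD, 1215 to 1748 CPM in CD+ABX and 1067 to 1294 CPM in TDD+ABX mice, and it did not pass in any of the 5 tests. None of the 7 follicle stroma genes tested changed in any of the 5 tests, and of 8 T cell genes Cd8b1 (-2.33, q = 0.0076, edgeR) was the one that fell with the diet in SPF mice, and Trac (-1.29, q = 0.0243, edgeR) with ABX on TDD, both as log2 fold changes. Fabp6 and Slc10a2 were the 2 of 8 epithelial genes that rose with ABX, on both diets.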

How the data were processed

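RNA from the terminal ileum of 20 mice (4 groups of 5, assigned from the sample titles) had been sequenced, with 36676963 to 58662617 estimated counts per mouse. Reads were assigned to the GRCm38 transcriptome with kallisto 0.44.0, per the submitters' processing notes. The table of estimated counts per gene symbol was used as the authors deposited it, in whole numbers. TPM per transcript, which the authors' kallisto run had corrected for length, were summed per gene and used for shares and for alternatives. No sample was pooled, and how the authors handled reads shared by related segments beyond kallisto's default is not given in the sources used here. The replicates are separate mice by their labels.

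Segments were matched by symbol, and their sequence and position come from GENCODE M21. Counts were tested with edgeR 4.0.16 (limma 3.58.1, R 4.3.3) by the quasi-likelihood test, with trimmed mean of M values scaling, genes of at least 0.5 CPM in any mouse and 1 fit over all 4 groups. A change was called at an adjusted p under 0.05 (Benjamini-Hochberg over all genes tested) and a fold of 2. The study's methods give these thresholds but do not name the test. The scripts were tested on simulated data. Scores over all segments (sum, number seen at 10 counts, largest share, effective number) were described without a test. Exact intervals and depth cover counting error only, and the number of mice limits the precision.

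Members, lists and tests were chosen with earlier results of these data known. The text names the 10 segments with the highest mean share, each segment that led a mouse, the segments called (the 10 with the largest change where more were), the 3 lowest p where none was, the 3 with the highest ratio of the highest to the median mouse, and the heavy chain constant genes. Further segments (Ighv1-18, Ighv1-59, Ighv1-76, Ighv2-9-1, Ighv3-4, Ighv5-12, Ighv14-1) were added after their values were seen. Alternatives were other scaling (relative log expression, upper quartile), DESeq2 1.42.0, limma-voom, limma on log2(TPM + 1) and log2(TPM + 0.1), other filters, fits of single comparisons, a replicate block, no fold limit, other units, members or indices for the scores, and each mouse left out. Leaving out the 7 libraries rich in B cell genes and the summed B cell level as a covariate were chosen after seeing the data. Python libraries were pandas 2.3.3 and scipy 1.17.1. Values of some genes of the lists are not reported here.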

Additional observations from a re-analysis of the deposited data

Results flagged for a closer look

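In each group of 5 mice it was asked whether the highest or lowest mouse lay far from the other 4, by the gap to its nearest neighbour as a share of the group's range (Dixon's test at its 95% level). For normally spread values that were not picked by their height, chance alone gives about 1 such group in 20. The measures were the summed Ighv level, the summed B cell list, the scores and the segments that led a mouse. In all, 13 of 64 groups stood out, several of them through the same mouse. The segments were picked because they were high in a mouse, so 13 of 64 cannot be set against that rate.

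For the sum of all segments, TDD mouse 1 stood below its group at 232 CPM, with 679 CPM next, and Ighv6-3 was low in the same mouse (5.77 CPM, next 36.1 CPM). For the summed B cell list, TDD+ABX mouse 5 stood above its group at 167 CPM, with 39.1 CPM next. Ighv7-3 was high in TDD mouse 2 (147 CPM, next 14.5 CPM) and in CD+ABX mouse 1 (7.76 CPM, next 2.70 CPM), and Ighv5-17 in TDD mouse 5 (65.1 CPM, next 17.9 CPM). Ighv1-81 was high in CD mouse 2 (60.3 CPM, next 26.5 CPM).

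CD+ABX mouse 5 stood apart for 3 segments, Ighv9-3 (96.4 CPM, next 7.68 CPM), Ighv6-3 (77.6 CPM, next 17.6 CPM) and Ighv1-81 (22.5 CPM, next 2.70 CPM). In the same group Ighv1-53 was high in mouse 2 (16.8 CPM, next 5.81 CPM) and Ighv1-76 in mouse 3 (25.1 CPM, next 5.97 CPM). Among TDD+ABX mice Ighv1-72, whose sequence is shared for the most part with other segments, was high in mouse 3 (31.5 CPM, next 8.40 CPM).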

How the results depend on the processing

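The numbers of segments that changed (7 for TDD over CD in SPF mice, 1 for the same with ABX, 7 for ABX on CD, 16 for ABX on TDD and 0 for the interaction) depended on the test and on single mice. DESeq2 gave 11 (9 higher, 2 lower) and 5 (4 higher, 1 lower) for the diet without and with ABX, 13 (1 higher, 12 lower) for ABX on CD and 3 for the interaction. Limma-voom gave 6 for ABX on TDD. Limma on log2(TPM + 0.1) gave 4 for the diet in SPF mice and 7 for ABX on TDD, and on log2(TPM + 1) 2 for the diet with ABX and 7 for ABX on TDD. Fitting the 2 groups alone gave 0 for the diet with ABX. With 1 mouse left out the numbers ran from 5 to 12, 0 to 2, 3 to 9, 8 to 21 and 0 to 1. Without the 7 libraries rich in B cell genes, which leaves 1 TDD mouse assumed to vary like the other groups, they were 0 for the diet in SPF mice and 1 for ABX on either diet. With the summed B cell level as a covariate they were 0 for the diet with ABX, 1 for ABX on CD and 7 for ABX on TDD. Other scaling, other filters and no fold limit kept each number within 1.5 times. The causes of these differences were not tested.

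The replicate number did not pair the mice. Deviations from the group means of same-numbered mice had a median correlation over genes of -0.027 (30 pairs, -0.42 to 0.29), and of mice with different numbers -0.0047 (120 pairs). With the number as a replicate block the segments that changed were 5, 0, 7, 11 and 0, and the genes of the constant, B cell, germinal centre and plasma cell lists 0, 1, 4, 8 and 0.

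Of these lists' genes 0, 1, 5, 8 and 0 changed in the 5 comparisons. DESeq2 gave 12 for ABX on CD and 1 for the interaction, limma-voom 0 for the diet with ABX and 1 for ABX on CD. Limma on log2(TPM + 1) gave 0, 1 and 4 for the diet with ABX, ABX on CD and ABX on TDD, and on log2(TPM + 0.1) 2 and 4 for ABX on CD and on TDD. Without a fold limit 5, 2, 13 and 14 passed in the first 4 comparisons, and the fit of 2 groups gave 0 for the diet with ABX. With 1 mouse left out the numbers ran from 0 to 3, 0 to 1, 3 to 11 and 5 to 15. Without the libraries rich in B cell genes they were 0 for the diet with ABX, 3 for ABX on CD and 0 for ABX on TDD, and with the covariate 2 for ABX on TDD.

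Without the libraries rich in B cell genes the log2 ratio of the summed level was -0.53 for the diet in SPF mice (0.73 with them) and 0.39 for ABX on TDD (-1.06 with them). The difference in segments seen was then -6.33 (0.2 with them) and 3 (-6 with them), and that in the largest share -5.77 percentage points for the diet in SPF mice (-1.13 with them). For ABX on TDD it was -10.6 segments at a limit of 50 counts and 1.76 after thinning. With families summed before the largest share was taken, its difference was -8.09, 5.83, -19.4 and -5.50 percentage points for the diet in SPF mice, the diet with ABX, ABX on CD and ABX on TDD. Of single segments, Ighv1-4 (-1.16) and Ighv7-3 (-0.10) turned direction for the diet in SPF mice, and Ighv1-4 (1.30), Ighv3-8 (1.74) and Ighv7-3 (1.65) for ABX on TDD, on the log2 scale, all without the 7 libraries. Calls were followed for the segments called in edgeR's fit over all mice and for the 3 with the lowest p for the interaction. For these, over the alternatives other than single mice left out, calls were lost 112 times and gained 3 times without a turn of direction. Calls gained by other segments are not in this count. With DESeq2, for example, these included Ighv1-18, Ighv1-26 and Ighv5-12 for the diet in SPF mice, Ighv1-81 for the diet with ABX and Ighv1-69 and Ighv9-4 for ABX on CD.

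The depth of 9239 to 39983 Ighv counts per mouse left 12 segments with at least 10 counts in a mouse below the filter. Reads shared by related segments and mutated sequences limit single levels, and whole tissue gives no cell numbers.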
